A study of Mus musculus with 10 samples.

Results

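Stefins, Slpi and Serpinb1a are protease inhibitors that myeloid cells carry, and their RNA was followed here in the spleens of 10 female BALB/c mice immunized with cartilage proteoglycan (PG). A list of 7 genes was examined, namely the stefin A genes Stfa1, Stfa2, Stfa2l1 and Stfa3, the stefin B gene Cstb, the secretory leukocyte protease inhibitor gene Slpi and the serpin gene Serpinb1a. They were chosen by gene symbol after Stfa3 and Slpi had been seen at higher levels in arthritic mice, so every arthritic against non-arthritic value of these genes is a description and carries no test. Probe sets were found for 6 of the 7 genes by the platform's annotation, out of 18193 named genes. Stfa2 had none, and Stfa1 shared its only probe set with Cstdc5, another stefin A-like gene, so the value called Stfa1/Cstdc5 below cannot be assigned to one of them. Stfa3, Stfa2l1 and Slpi had 1 probe set each, while Cstb and Serpinb1a had 2 each.

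Each spleen was measured on 1 Affymetrix array, and the labels name separate mice as biological replicates. The groups were 2 old arthritic mice (both aged 9 months), 2 old non-arthritic mice (7 and 5 months), 2 young arthritic mice (5 and 4 months) and 4 young non-arthritic mice (3, 3, 2 and 1 months). All 10 mice, the non-arthritic ones included, had received PG with the adjuvant DDA by intraperitoneal injection on 3 occasions, and RNA came from a piece of whole spleen. No unimmunized mouse was part of the array experiment. Ages could be those at the first injection or at harvest, which is not labelled. Arthritic mice were the older ones within the old and within the young class, so age and arthritis status are only partly separable. An age of 5 months stands in an old and in a young group.

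Stefins are small inhibitors that block papain-like cysteine proteases, the lysosomal cathepsins, by occupying the active site cleft. The mouse has a cluster of stefin A genes in place of the single human CSTA gene, and several of them are transcribed in cells of the granulocyte lineage, whereas stefin B is made by nearly every cell type. Slpi and Serpinb1a act on another protease class: both inhibit the serine proteases of neutrophil granules, such as neutrophil elastase (Elane) and cathepsin G (Ctsg), Slpi as a secreted protein and Serpinb1a inside the cell. In the mouse the spleen also makes granulocytes, so that granule protein RNA is found there along with that of mature cells.

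The stefin A members lie together on chromosome 16. In the RefSeq annotation of GRCm38.p6, the stretch from Csta1 to Stfa3 holds 12 protein-coding genes, of which 11 have a stefin or cystatin name. Slpi lies on chromosome 2, Cstb on chromosome 10 and Serpinb1a on chromosome 13. RefSeq promoter sequences of the same build were given for 5 of the 7 members, not for Cstb or Serpinb1a. The 4 stefin A promoters, each from 250 bases before to 50 after the start of the gene, were 78.8% to 90.5% identical to each other in pairwise alignments. Stfa2 and Stfa2l1 were the most alike pair, and Slpi was 42.6% to 47.2% identical to the 4. The 90 bases before and the first 20 bases of each gene are shown, 5′ to 3′ on the strand of the gene, because they hold 2 of the runs of 12 or more bases that all 4 stefin A promoters share. Capitals mark those shared runs, and Slpi, at chr2:164356488-164356597 on the minus strand, is set below them for comparison. The stefin windows are chr16:36277058-36277167 on the plus strand for Stfa1, chr16:36408344-36408453 on the minus strand for Stfa2, chr16:36156721-36156830 on the plus strand for Stfa2l1 and chr16:36455373-36455482 on the minus strand for Stfa3.
Stfa1: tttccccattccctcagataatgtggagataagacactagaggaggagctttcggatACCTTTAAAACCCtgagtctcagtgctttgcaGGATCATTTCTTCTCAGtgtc
Stfa2: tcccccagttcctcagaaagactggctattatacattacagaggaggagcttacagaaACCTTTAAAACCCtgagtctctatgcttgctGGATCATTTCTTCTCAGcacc
Stfa2l1: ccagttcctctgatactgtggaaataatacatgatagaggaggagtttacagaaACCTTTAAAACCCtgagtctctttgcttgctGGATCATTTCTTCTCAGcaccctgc
Stfa3: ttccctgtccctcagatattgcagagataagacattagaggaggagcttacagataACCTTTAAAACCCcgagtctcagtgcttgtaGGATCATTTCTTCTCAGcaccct
Slpi: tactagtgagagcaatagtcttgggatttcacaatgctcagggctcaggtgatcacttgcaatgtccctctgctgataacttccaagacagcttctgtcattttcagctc

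The run ACCTTTAAAACCC began 32 to 36 bases before the start in the 4 stefin A genes, and on either strand it was present in 9 of 32851 promoters, or 0.0274%. The other 5 that held it were Cstdc3, Cstdc4, Cstdc5, Csta3 and Gm7260, all within the same stretch of chromosome 16. GGATCATTTCTTCTCAG, which began 1 to 5 bases before the start, was present in 6 promoters (0.0183%), those of the 4 members, Csta3 and Cstdc5. The other 2 shared runs lay upstream of the windows shown, ATTATTGGCACAGAG in 5 promoters (0.0152%) and ACTCAGCATTTCC in 10 (0.0304%), with no overlap between any of the 4 runs. None of the 4 was found in the Slpi promoter. A C/EBP-type motif, TTGCNNAA on either strand, was found in the promoters of Stfa1 and Slpi and in 10.8% of all promoters, and the PU.1-type motif GAGGAAGT in none of the 5, against 3.20% of all. These matches describe letters in a window and not binding.

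Of the 3 stefin A probe sets among the members, that of Stfa3 was the dimmest and showed the widest difference. On the log2 scale of the array its signal was 6.84 and 7.83 in old arthritic mice, against 5.65 and 5.36 in old non-arthritic mice. Young arthritic mice had 6.67 and 7.00, against 6.06, 5.76, 5.59 and 5.53 in young non-arthritic mice. All 4 arthritic mice thus lay above all 6 non-arthritic mice, a separation in this direction that 12.2% of the 11870 genes kept in the fits also showed. Fitted at equal age, with age in months and arthritis status in 1 model over all arrays, the signal was 1.30 higher in arthritic mice (SE 0.26), which is 2.45-fold. The array medians were 6.88 to 6.96, so Stfa3 lay above the median of its array only in old arthritic replicate 2 and young arthritic replicate 2, and it passed the filter on dim probe sets through those 2 arthritic arrays alone.

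Stfa2l1 was brighter and ordered the mice in much the same way. Its log2 signal was 8.82 and 9.63 in old arthritic mice, against 8.02 and 8.003 in old non-arthritic mice. In the young it was 8.76 and 8.90 in arthritic mice and 8.60, 8.13, 7.50 and 7.91 in non-arthritic mice. Here too the arthritic and non-arthritic mice did not overlap, although young non-arthritic replicate 1 came within 0.16 of the lowest arthritic value. The difference at equal age was 0.83 (SE 0.26), or 1.77-fold.

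The shared probe set Stfa1/Cstdc5 separated the old mice but not the young. Signals of 8.81 and 9.60 in old arthritic mice stood against 7.87 and 7.99 in old non-arthritic mice. Young arthritic mice had 8.64 and 9.06, against 8.65, 8.90, 8.0 and 7.93 in young non-arthritic mice, so that both 3-month-old non-arthritic mice lay above the lower young arthritic mouse. At equal age the log2 difference was 0.78 (SE 0.31), or 1.72-fold, and it was 0.49 without old non-arthritic replicate 1. Of the other stefin A-like genes in the cluster, Csta1 (3.50 to 3.85 over all 10 arrays) and a probe set shared by Cstdc4 and Csta2 (4.80 to 5.38) lay below the filter in every group.

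Slpi, the inhibitor of elastase and cathepsin G, was among the brightest probe sets of every array, between percentiles 99.4 and 99.8 of all probe sets. Its log2 signal was 14.24 and 14.33 in old arthritic mice, against 13.43 and 13.46 in old non-arthritic mice. Young arthritic mice had 14.51 and 14.56, against 13.80, 14.03, 14.40 and 14.17 in young non-arthritic mice. Arthritic mice were above non-arthritic mice within each age group, but not across them, since young non-arthritic replicate 3, aged 2 months, exceeded both old arthritic mice. The 2 old non-arthritic mice were the lowest of all 10. At equal age the log2 difference between arthritic and non-arthritic mice was 0.89 (SE 0.15), or 1.85-fold.

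Serpinb1a, the intracellular serpin that protects neutrophils from their own granule proteases, showed a smaller difference on its brighter probe set. That probe set gave 11.71 and 12.10 in old arthritic mice, against 11.52 and 11.56 in old non-arthritic mice. It gave 11.99 and 12.57 in young arthritic mice, against 12.19, 11.99, 11.82 and 11.67 in young non-arthritic mice. Old mice were separated by status, young mice overlapped, and young arthritic replicate 2 was the highest of all 10. The difference at equal age was 0.55 (SE 0.18), or 1.46-fold, and it was 0.34 without young arthritic replicate 2.

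The second Serpinb1a probe set, of a type that can bind more than one transcript, was dimmer and gave a wider difference of 0.89 (SE 0.26). It measured 8.27 and 8.79 in old arthritic mice, against 7.88 and 7.83 in old non-arthritic mice. Its signal was 8.58 and 9.37 in young arthritic mice, against 8.74, 8.37, 7.99 and 7.95 in young non-arthritic mice. The order of the mice was close to that of the brighter probe set, with young arthritic replicate 2 again at the top.

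Cstb, the broadly expressed stefin B, differed least. Its brighter probe set gave 12.27 and 12.53 in old arthritic mice and 12.43 and 12.31 in old non-arthritic mice. In the young it gave 12.91 and 12.47 in arthritic mice and 12.31, 12.51, 12.60 and 12.41 in non-arthritic mice. The groups overlapped in both age classes, and only young arthritic replicate 1 stood above all others. The difference at equal age was 0.23 (SE 0.14), 0.05 without young arthritic replicate 1 and 0.35 without young arthritic replicate 2. On the second Cstb probe set, whose values ran from 10.87 to 11.36, the difference was 0.08 (SE 0.11).

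**Figure D1:**
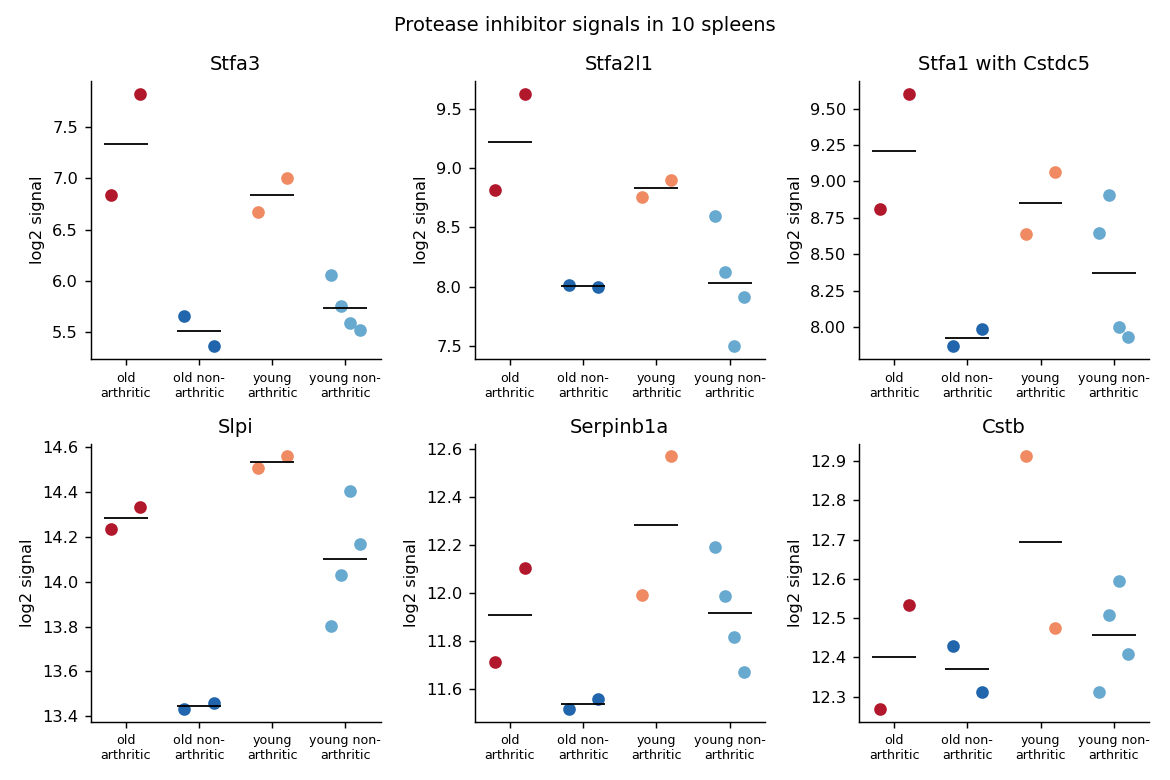
Log2 signal of the 6 measured inhibitors, on each gene's probe set with the highest mean, with 1 point per mouse and a line at the mean of each group. Stfa3 and Stfa2l1 are higher in every arthritic than in every non-arthritic mouse, Slpi is lowest in the 2 old non-arthritic mice, and Cstb overlaps between the groups.

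Over the 6 inhibitors, with 1 probe set per gene, the difference at equal age was above 0 for all 6, from 0.23 to 1.30. Its median was 0.80 against 0.11 over all 11870 genes. For Slpi (0.89) and Serpinb1a (0.55) it lay above the direct differences, 0.84 and 0.37 in old and 0.43 and 0.36 in young mice. The fit also holds a straight slope on age, -0.11 and -0.07 per month for these genes. Only the labelled age of 5 months had mice of both statuses. Among mice aged 4 months or more, with both arthritic groups set against the old non-arthritic mice, the differences were 1.58 for Stfa3, 1.10 for Stfa1/Cstdc5, 1.02 for Stfa2l1, 0.96 for Slpi, 0.55 for Serpinb1a and 0.18 for Cstb. Old arthritic against old non-arthritic mice gave 1.83 for Stfa3 (SE 0.30), 1.28 for Stfa1/Cstdc5 (SE 0.36), 1.21 for Stfa2l1 (SE 0.33), 0.84 for Slpi (SE 0.17), 0.37 for Serpinb1a (SE 0.22) and 0.03 for Cstb (SE 0.16).

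In young arthritic against young non-arthritic mice the differences were 1.10 for Stfa3 (SE 0.26), 0.80 for Stfa2l1 (SE 0.29), 0.48 for Stfa1/Cstdc5 (SE 0.31), 0.43 for Slpi (SE 0.14), 0.36 for Serpinb1a (SE 0.19) and 0.24 for Cstb (SE 0.14). Some of these values moved with single arrays. Without young arthritic replicate 2 they were 0.27 for Stfa1/Cstdc5 and 0.08 for Serpinb1a, and without young arthritic replicate 1 they were 0.65 for Serpinb1a and 0.02 for Cstb. With the replicate number as a block Stfa1/Cstdc5 had 0.07. Old arthritic mice were fully above old non-arthritic mice for 5 of the 6 inhibitors, beside 38.4% of all genes. Young arthritic mice were fully above young non-arthritic mice for 3 of the 6 (Stfa3, Stfa2l1 and Slpi), beside 30.2% of all genes. These shares belong to the contrast by which the members were chosen, so nothing is read from them. As background, 1.95% of all genes passed an adjusted p of 0.05 as higher in arthritic mice at equal age, 0.548% in the comparison from 4 months on, 0.0842% in old mice and 0.194% in young mice.

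**Figure D2:**
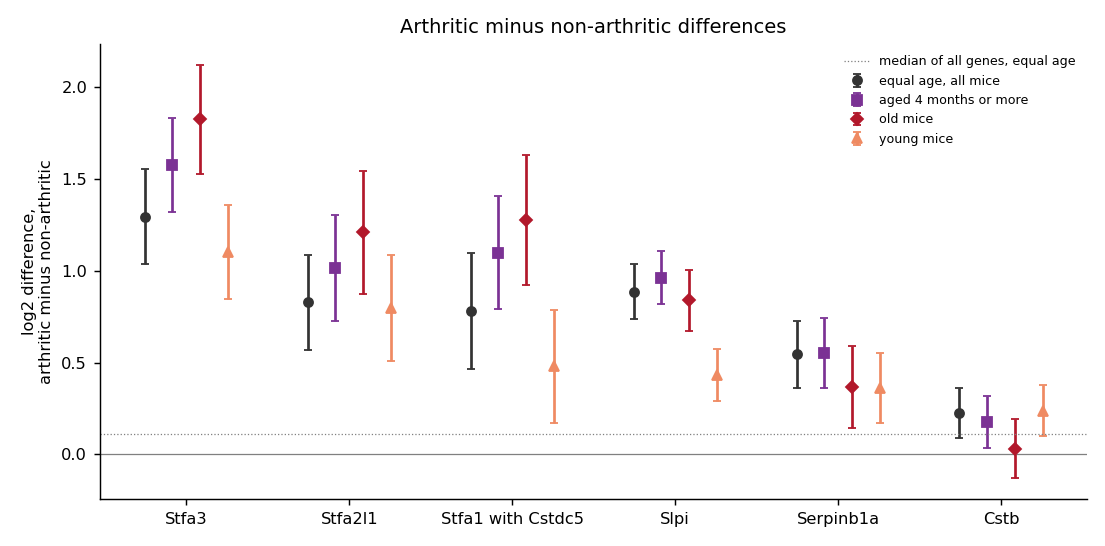
Log2 difference, arthritic minus non-arthritic, for each of the 6 inhibitors under 4 comparisons, with bars of 1 standard error from the limma fit. Stfa3 has the largest difference in each comparison (1.10 to 1.83) and Cstb the smallest (0.03 to 0.24), and the dotted line at 0.11 is the median of all genes at equal age.

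One arthritic and 1 non-arthritic mouse had the same labelled age of 5 months, young arthritic replicate 1 and old non-arthritic replicate 2. The arthritic mouse was higher for all 6 inhibitors, by 1.31 for Stfa3 (6.67 against 5.36), 1.05 for Slpi (14.51 against 13.46), 0.76 for Stfa2l1, 0.65 for Stfa1/Cstdc5, 0.60 for Cstb and 0.43 for Serpinb1a on the log2 scale. With 1 mouse on each side this has no replicate check.

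The arthritis differences of old and young mice were set against each other in the same fit (limma, Benjamini-Hochberg over all kept probe sets). This contrast reuses the values by which the genes were chosen, and Stfa3 entered it only through its arthritic arrays, so it is no independent test of the members. The old minus young difference was 0.80 for Stfa1/Cstdc5 (SE 0.47), 0.72 for Stfa3 (SE 0.39), 0.41 for Stfa2l1 (SE 0.44), 0.41 for Slpi (SE 0.22), 0.005 for Serpinb1a (SE 0.29) and -0.21 for Cstb (SE 0.21). None of the 6 passed the test (adjusted p = 1 for each) or an unadjusted p of 0.05, and of all genes 0% passed the adjusted and 3.66% the unadjusted threshold. Old arthritic replicate 2 was the highest mouse for all 3 stefin A probe sets, and without it the differences were 0.40, 0.23 and 0.01 for Stfa1/Cstdc5, Stfa3 and Stfa2l1. The same array stood apart from the other 9 on the first principal component of all kept probe sets, which held 40.0% of their variance (a score of 52.6, next highest 19.6).

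Age among non-arthritic mice was not itself the basis for choosing the genes, but the same non-arthritic arrays are the baseline of the contrast that was, so the age comparison is not independent of the choice. The 2 old non-arthritic mice were below all 4 young non-arthritic mice for Slpi and Serpinb1a, 2 of 6 inhibitors, where 9.07% of all genes showed the same separation. Slpi averaged 13.45 ± 0.02 (SD, n = 2) in old and 14.10 ± 0.25 (SD, n = 4) in young non-arthritic mice. The difference of -0.65 (SE 0.14) was the only one among the 6 past an unadjusted p of 0.05, a threshold that 2.38% of all genes passed as lower in old mice, and it did not pass after adjustment (adjusted p = 0.997, limma). For Stfa1/Cstdc5 the old minus young difference was -0.44 (SE 0.31), for Serpinb1a -0.38 (SE 0.19), for Stfa3 -0.22 (SE 0.26), for Cstb -0.09 (SE 0.14) and for Stfa2l1 -0.02 (SE 0.29). None of the 6 passed the adjusted threshold, as 0% of all genes did.

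The slope on age was fitted together with the arthritis difference at equal age, on the same 10 arrays. Arthritic mice averaged 6.75 months and non-arthritic mice 3.5 months, so the slope is not independent of the choice of genes. Along age in months, with arthritis status in the model, Slpi had a slope of -0.11 per month (SE 0.03). It again lay past an unadjusted p of 0.05, with 8.42% of all genes sloping down at that threshold, and not past the adjusted one (adjusted p = 0.466, limma), which 0% of all genes reached. Slopes of the other 5 were smaller, from -0.07 for Serpinb1a (SE 0.03) to 0.05 for Stfa2l1 (SE 0.05). Within the young non-arthritic group, Stfa3, Stfa2l1 and Stfa1/Cstdc5 had their 2 highest values in the 2 mice aged 3 months, whereas Slpi had its 2 lowest there. Stefin A and Slpi thus ran in opposite directions among these 4 mice, which is given as a description only.

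**Figure D3:**
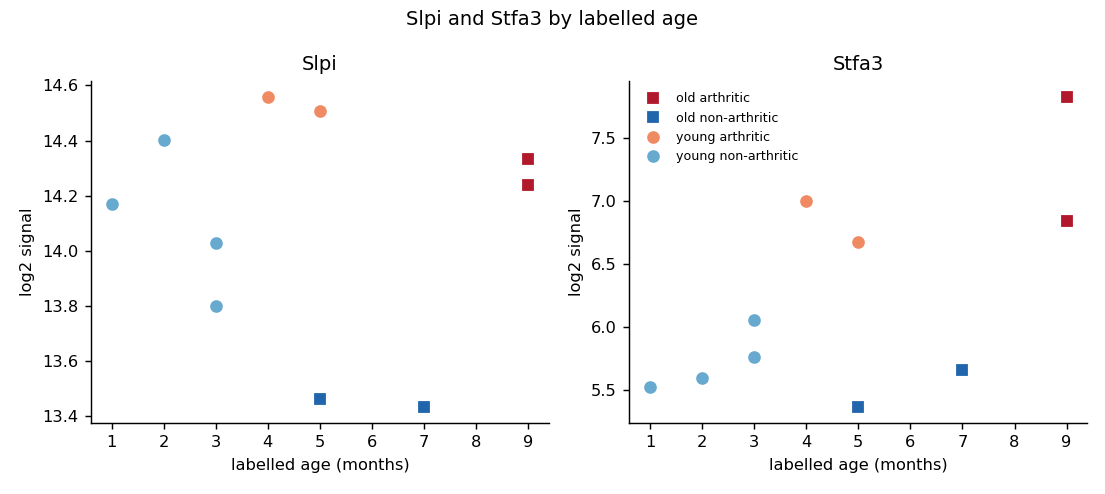
Log2 signal of Slpi and Stfa3 against labelled age in months, with 1 point per mouse, squares for old and circles for young groups. Slpi is highest in young arthritic mice and lowest in the 2 old non-arthritic mice at 5 and 7 months, while Stfa3 stays at 6.06 or below in every non-arthritic mouse at any age and at 6.67 or above in every arthritic one.

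Profiles over the 10 arrays were compared by the root mean square distance between log2 values centred on their own mean. This distance depends on the size of the changes. A gene that did not change would lie 0.77 from Stfa3, 0.55 from Stfa1/Cstdc5 and 0.39 from Slpi. Among all other kept genes, the one nearest to Stfa3 was Stfa2l1, at a distance of 0.28 where the median gene was at 0.74. It was followed by 1700020L24Rik (0.33), the tight junction gene Cldn7 (0.34), the endothelial lipase gene Lipg (0.35) and 1700031F05Rik (0.36). Stfa2l1 was also among the 5 genes nearest to Stfa1/Cstdc5 (0.28), after Tmem154 (0.26), Them6 (0.26), the retinol dehydrogenase gene Rdh12 (0.28) and the secreted glycoprotein gene Lrg1 (0.28).

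Nearest to Slpi were the galectin-3 gene Lgals3 (0.19), the lysosomal sulfatase gene Galns (0.20), the tetraspanin gene Tspan5 (0.20), the platelet integrin gene Itga2b (0.20) and the clotting factor gene F13a1 (0.20), at a median distance of 0.38. No stefin was among them, and Slpi lay 0.48 to 0.625 from the 3 stefin A probe sets, 0.33 from Cstb and 0.32 from Serpinb1a. A gene that did not change would lie 0.39 from Slpi. The distance of Cstb, which varied little, is therefore not read as likeness to Slpi. The 3 stefin A probe sets lay 0.28 to 0.39 from each other. All arrays share their normalization and their mice, so these distances describe likeness over 10 points. Stefin A transcripts, whose sequences were not compared here, may also bind each other's probes, which was not tested.

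Neutrophil serine proteases, among them the targets of Slpi and Serpinb1a, had differences above 1 on the log2 scale at equal age, none of which passed the test. Ctsg averaged 11.64 in old arthritic mice against 10.06 in old non-arthritic mice, and 11.84 in young arthritic mice against 11.23 in young non-arthritic mice. Its difference at equal age was 1.32 (SE 0.41, adjusted p = 0.0985, limma). The difference was 1.19 for Elane (SE 0.38, adjusted p = 0.109) and 1.15 for proteinase 3, Prtn3, a target of Serpinb1a (SE 0.41, adjusted p = 0.141). The granzyme gene Gzma, a serine protease of cytotoxic lymphocytes, had -0.42 (SE 0.29, adjusted p = 0.412).

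None of the 5 granule serine proteases kept, of 8 listed, passed the test in this comparison. The 3 neutrophil proteases shared the low values of Slpi in old non-arthritic mice. Old minus young non-arthritic differences were -1.17 for Ctsg (SE 0.34), -1.21 for Elane (SE 0.33) and -1.23 for Prtn3 (SE 0.34), each with an adjusted p of 0.997.

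Lysosomal proteases, most of them cysteine cathepsins of the class that stefins inhibit, had smaller differences. Of 12 genes for cathepsins and legumain, all kept, 11 had a difference above 0 at equal age, but the median was 0.12, next to 0.11 over all genes, and none passed the test. Lgmn, the asparagine-specific protease legumain, which is not of the papain-like class, had 0.36 (SE 0.09, adjusted p = 0.0556). Ctsz had 0.22 (adjusted p = 0.136), Ctsl, cathepsin L, 0.35 (adjusted p = 0.275), and Ctsw, made by cytotoxic lymphocytes, -0.13 (adjusted p = 0.416). The list also holds Ctsa, a serine carboxypeptidase and so also outside that class, with 0.09.

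Of 9 other cystatins 2 were kept, both above 0, Cst7 at 0.41 (adjusted p = 0.273) and Cst3, the widely expressed cystatin C, at 0.13 (adjusted p = 0.432). Of 10 other clade B serpins 5 were kept, 3 of them above 0, with a median of 0.05 and none past the test. The largest value of the 5 belonged to Serpinb2, the plasminogen activator inhibitor of macrophages, at 0.85 (SE 0.29, adjusted p = 0.129). This lay above its direct differences, 0.25 in old and 0.43 in young mice. The fit at equal age also gave Serpinb2 a slope of -0.20 per month.

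Of 19 other serine protease inhibitors and related genes 8 were kept, 7 of them above 0, with a median of 0.21, and 1 passed the test. This was Wfdc1, a whey acidic protein domain gene related to Slpi, which averaged 8.15 in old arthritic mice against 8.47 in old non-arthritic mice, and 8.002 in young arthritic mice against 8.33 in young non-arthritic mice. It fell by 0.40 at equal age (SE 0.08, adjusted p = 0.0423), beside 0.354% of all genes called lower, and the call was lost when any of 7 of the 10 arrays was left out, with renewed quantile normalization, with arrays centred on their medians and with the replicate number as a block. In the same list Wfdc21, at 1.42 (SE 0.47, adjusted p = 0.115), and annexin A1, Anxa1, at 0.97 (SE 0.24, adjusted p = 0.0662), had the largest positive values and were picked out after these were seen.

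**Figure D4:**
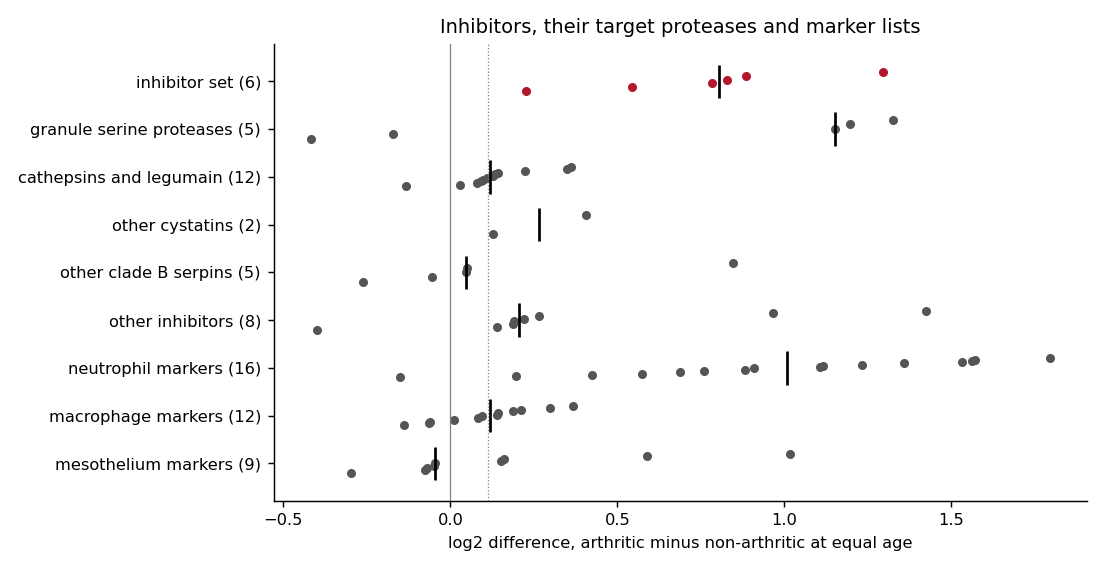
Log2 difference, arthritic minus non-arthritic at equal age, with 1 point per kept gene, a black bar at the median of each list and the number of genes in brackets. The inhibitors have a median of 0.80, neutrophil markers 1.01 and granule serine proteases 1.15, while cathepsins (0.12) and macrophage markers (0.12) lie near the median of all genes, 0.11, drawn as a dotted line.

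Markers of neutrophils differed in the same direction as the inhibitors. Of 20 neutrophil genes listed 16 were kept, 15 had a difference above 0 at equal age, and the median was 1.01. In old mice the median was 1.16 and in young mice 0.48. None of the 16 passed the test at equal age, where the smallest p-values were those of the collagenase gene Mmp8 at 1.56 (adjusted p = 0.0622), lipocalin 2, Lcn2, at 1.57 (adjusted p = 0.0625), lactoferrin, Ltf, at 1.36 (adjusted p = 0.0787) and the formyl peptide receptor gene Fpr2 at 0.88 (adjusted p = 0.0823). The other 12 ranged from -0.15 for the chemokine receptor gene Cxcr2 to 1.80 for the chitinase-like gene Chil3, which are named as the ends of the list after their values were seen. Among mice aged 4 months or more, Lcn2 alone of the 16 passed the test, at 1.90 (SE 0.33, adjusted p = 0.0469), beside 0.548% of all genes called higher, and with 1 array left out the number that passed ran from 0 to 13.

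Summed over the 16 markers, the signal was 16.93 to 17.27 on the log2 scale in old arthritic mice, against 16.11 to 16.28 in old non-arthritic mice. In young arthritic mice it was 16.97 to 17.55, against 16.46 to 17.19 in young non-arthritic mice. In whole spleen, more cells of a type and more RNA per cell cannot be told apart, and the part of neutrophil RNA in the differences of the inhibitors was not tested.

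In 1 mouse the neutrophil mean and all 3 stefin A probe sets lay on opposite sides of their averages. Young non-arthritic replicate 3 had a mean neutrophil signal 0.34 above the average of the 10 arrays, and its Slpi was 0.31 above its own average. Its Stfa3, Stfa1/Cstdc5 and Stfa2l1 signals were 0.64, 0.55 and 0.93 below theirs. In the other young non-arthritic mice Slpi lay on the other side from the neutrophil mean, although both were near their averages in replicate 2. Relative to their averages, Slpi and the neutrophil mean were at -0.29 and 0.10 in replicate 1, -0.06 and 0.01 in replicate 2, and 0.08 and -0.51 in replicate 4. Stefin A probe sets were on both sides in replicates 1 and 2. Replicate 1 had Stfa3 at -0.17, with Stfa1/Cstdc5 at 0.10 and Stfa2l1 at 0.17. Replicate 2 had Stfa3 at -0.47 and Stfa2l1 at -0.30, with Stfa1/Cstdc5 at 0.36. In replicate 4 Stfa3, Stfa1/Cstdc5 and Stfa2l1 were at -0.70, -0.61 and -0.51, on the side of the neutrophil mean. Old arthritic replicate 1 had a neutrophil mean of 0.06 above average with Stfa3 at 0.61 above average, and young arthritic replicate 1 had 0.09 with Stfa3 at 0.44 and Slpi at 0.41. Old and young arthritic replicates 2 had neutrophil means of 0.58 and 0.85, with Stfa3 at 1.60 and 0.77 and Slpi at 0.24 and 0.47. Old non-arthritic replicates 1 and 2 had neutrophil means of -0.86 and -0.66. Their Stfa3 was at -0.57 and -0.87 and their Slpi at -0.66 and -0.63.

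**Figure D5:**
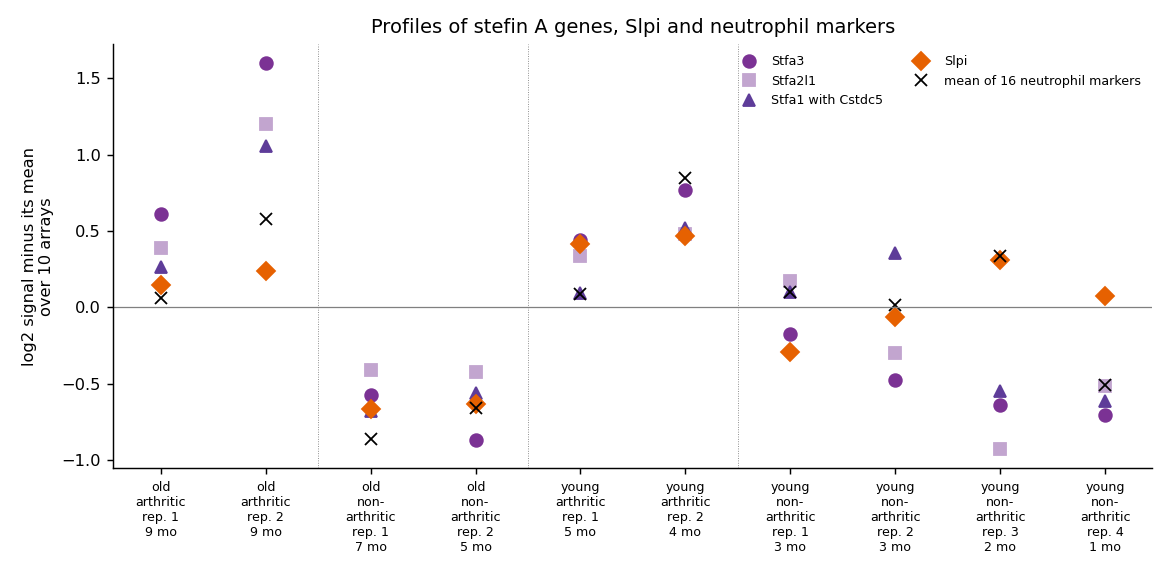
Log2 signal minus its mean over the 10 arrays for the 3 stefin A probe sets, Slpi and the mean of 16 neutrophil markers, with 1 column per mouse and the labelled age under it. Old arthritic replicate 2 has the highest stefin A values, both old non-arthritic mice are low for all 5, and in young non-arthritic replicate 3 Slpi and the neutrophil mean lie above 0 with the stefin A genes below it.

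Other cell types were checked on the same scale. Macrophage and monocyte markers had a median difference of 0.12 at equal age (12 of 14 kept, none past the test), erythroid markers 0.19 (7 of 10 kept, none), pancreatic acinar markers -0.34 (5 of 11 kept, none) and B and T lymphocyte markers 0.03 (8 of 9 kept, none). The 7 erythroid markers were all above 0, also in the direct comparisons. Their median was 0.31 in old and 0.35 in young mice, where all genes had 0.07 and 0.11. Lymphocyte markers, which define much of the spleen, summed to between 15.01 and 15.37 in every group. Mast cell and basophil markers (7 of 8 kept) had a median of 0.91 at equal age. Their median was 0.27 in old mice, 0.47 in young mice and 0.62 from 4 months, with 0 genes called in each. At equal age all 7 were above 0 and 2 passed the test as higher, beside 1.95% of all genes. These were the IgE receptor gene Fcer1a, by 0.91 (adjusted p = 0.0237, limma), and the mast cell carboxypeptidase gene Cpa3, by 0.95 (adjusted p = 0.0485, limma). In 4 of the 10 fits with 1 array left out, with the replicate number as a block, and with a filter that required a signal above the array median in all 10 arrays, no gene of that list was called. Of the mesothelium and epithelium markers (9 of 10 kept, median -0.05) 4 were above 0. Only Cldn7 passed the test, at 1.02 (adjusted p = 0.013, limma, beside the same 1.95% of all genes). Epcam, picked out after its value was seen, had 0.59 (adjusted p = 0.054, limma). The call of Cldn7 was lost in 3 of those 10 fits and under the block. Cldn7 averaged 6.52 in old and 6.47 in young non-arthritic mice, below the array medians of 6.88 to 6.96. In arthritic mice it averaged 7.48 in old and 7.52 in young. It thus passed the filter on dim probe sets with its arthritic arrays, so its test is not independent of that filter. The filter on all 10 arrays did not keep it. Cldn7 is the gene named above among the nearest to Stfa3, which also passed with arthritic arrays.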

How the data were processed

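Total RNA of 10 spleens was hybridised to Affymetrix mouse arrays, 1 per mouse. Deposited by the authors were log2 values, 1 per probe set and array, from RMA by the submitters' processing notes, which name no version. Of 45101 rows, 64 controls were left out. A probe set was kept when it lay above its array's median in at least 2 arrays (23805 of 45037, 11870 named genes), and the kept probe set of highest mean represents a gene. The models came from limma 3.58.1 (lmFit, contrasts.fit, eBayes; R 4.3.3), with Benjamini-Hochberg adjustment over all kept probe sets and a threshold of 0.05. One model had the 4 group means, the other age in months and arthritis status, each over all 10 arrays. Since the arrays are not part of the paper's methods, the tests were chosen here. The spread behind the p-values is that between single mice, and the number of arrays limits the precision.

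The members and the gene lists were chosen with earlier results of these data known. Named genes are all members, the 5 genes nearest to each of 3 members, and in each list the genes past the threshold or, where there were none, those with the smallest p at equal age, up to 4. Promoters are those of the RefSeq table of GRCm38.p6, aligned globally with Biopython 1.88. Alternatives covered the filter, normalization, replicate numbers as a block, the spread, array weights, gene values and leaving out each array. Same-numbered arrays of different groups did not deviate together in all pairs, so the numbers were not used to pair mice. Figures were drawn with matplotlib 3.10.9.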

Additional observations from a re-analysis of the deposited data

How the results depend on the processing

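The median difference of the 6 inhibitors between arthritic and non-arthritic mice kept its direction under each alternative, at 0.74 to 0.84 at equal age, 0.91 to 1.02 from 4 months, 0.84 to 1.05 in old and 0.37 to 0.51 in young mice. Leaving out each array gave 0.61 to 0.93, 0.86 to 1.10, 0.80 to 1.25 and 0.39 to 0.67 in that order. The stricter filter dropped Stfa3, so its medians cover only the other inhibitors. The low end of 0.84 in old mice came from that smaller set. The 3 tested comparisons called none of the inhibitors under any alternative run. Renewed quantile normalization brought the median of all genes at equal age to 0.01, with the inhibitors' median at 0.74.

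Values near 0 changed sign. With array weights, the old minus young difference of effects was -0.016 for Serpinb1a (-0.017 with the mean of its probe sets), the old minus young non-arthritic difference was 0.016 for Stfa2l1, and the slope of Stfa1/Cstdc5 was -0.018 per month. Over the arrays left out, the difference of effects ran from -0.28 to 0.29 for Serpinb1a and -0.43 to 0.013 for Cstb, the slope from -0.011 to 0.068 for Stfa3 and -0.038 to 0.061 for Stfa1/Cstdc5, and the old minus young non-arthritic difference from -0.20 to 0.16 for Stfa2l1. The cause was not tested.

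With the replicate number as a block, Stfa1/Cstdc5 had a slope of -0.022 and a difference of 0.07 in young mice. Slpi had 0.62 in young mice, and no inhibitor was called. Of 12 same-number pairs, 4 deviated together with a correlation over 0.1 (range -0.53 to 0.36). Between groups of 2 arrays, replicates 1 and 2 give the same correlation by construction. The 12 pairs are therefore not 12 separate checks of whether the numbers pair mice.

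Single arrays moved differences by more than 1.5 times, among others, for Stfa2l1 in old mice (0.80 without arthritic replicate 2) and Serpinb1a in old mice (0.17 without arthritic replicate 2). Stfa3 was not kept by the stricter filter of all 10 arrays and has no value there. With 2 mice in 3 of the groups, and Stfa3 near or below the array median in most mice, small differences could not be resolved.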
